A study of Homo sapiens with 19 samples.

Results

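Long non-coding RNA (lncRNA) transcripts were compared between untreated SH-SY5Y cells and SH-SY5Y cells treated with sodium arsenite (AS). Members were transcripts of the deposited rRNA-depleted table whose identifier belongs to a gene of type lncRNA in GENCODE and whose value was above 1 in at least 1 of the 2 libraries. Host genes of small nucleolar RNAs were left out by name, namely genes called SNHG with a number, GAS5, ZFAS1 and EPB41L4A-AS1. Hosts under other names were not removed. The rule kept 5236 transcripts of 1971 genes, out of 48641 lncRNA transcripts and 256980 transcripts of all kinds in the table. Of these genes, 1400 had 1 member transcript and 571 had 2 or more.

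SH-SY5Y is a human neuroblastoma cell line. The study asked how RNAs are bound and sorted by the stress granule proteins G3BP1 and G3BP2, and its rRNA-depleted sequencing covered wild-type cells without treatment and cells given 500 μM arsenite for 1 h. Each condition had 1 library, so no difference below has a replicate check and no p-value is given. Arsenite is an oxidative stressor that stalls translation and induces stress granules, and depleting rRNA, rather than selecting poly-A tails, keeps lncRNAs without a tail and unspliced RNA in the library.

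lncRNAs are transcribed by the same machinery as mRNAs but are not translated into known proteins. Several of the best known are held in the nucleus: MALAT1 lies in nuclear speckles and NEAT1 is the scaffold of paraspeckles, which are nuclear bodies that respond to stress. Many others start divergently from the promoter of a protein-coding gene, run antisense to one, or lie in its introns, and others host microRNAs.

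Promoters are printed for 6 lncRNA genes with called transcripts that share no exonic base with another gene and with an entry in the RefSeq table. These genes, which also count among those with the largest changes in that group, were chosen after their values were seen. Each runs from 250 bases before to 50 bases after the RefSeq start, on GRCh38.p14 and on the strand of the gene, with every CG dinucleotide in capitals. The first set comprises the 4 genes with transcripts higher in AS, which are APTR (chr7:77696216-77696515, minus strand), NIPBL-DT (chr5:36876645-36876944, minus strand), THUMPD3-AS1 (chr3:9396574-9396873, minus strand) and OLMALINC (chr10:100373326-100373625, plus strand).
APTR: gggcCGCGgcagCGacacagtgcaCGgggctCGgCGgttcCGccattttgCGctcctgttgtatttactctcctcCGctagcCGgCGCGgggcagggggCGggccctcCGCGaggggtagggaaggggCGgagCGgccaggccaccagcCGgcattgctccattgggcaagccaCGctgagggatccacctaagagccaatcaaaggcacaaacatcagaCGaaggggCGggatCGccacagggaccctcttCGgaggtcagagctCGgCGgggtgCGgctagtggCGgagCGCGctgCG
NIPBL-DT: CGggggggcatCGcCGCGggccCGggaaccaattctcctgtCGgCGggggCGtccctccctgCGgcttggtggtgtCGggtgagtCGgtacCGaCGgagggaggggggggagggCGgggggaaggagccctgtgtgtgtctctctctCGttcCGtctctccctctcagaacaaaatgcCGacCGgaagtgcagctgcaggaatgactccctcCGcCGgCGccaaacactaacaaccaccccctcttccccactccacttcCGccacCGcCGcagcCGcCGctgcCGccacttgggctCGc
THUMPD3-AS1: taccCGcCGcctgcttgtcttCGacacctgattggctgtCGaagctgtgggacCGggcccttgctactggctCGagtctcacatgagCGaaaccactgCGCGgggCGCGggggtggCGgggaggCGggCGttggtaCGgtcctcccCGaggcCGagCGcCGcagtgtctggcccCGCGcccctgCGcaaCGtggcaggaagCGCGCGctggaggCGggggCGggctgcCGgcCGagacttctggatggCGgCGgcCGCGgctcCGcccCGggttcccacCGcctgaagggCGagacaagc
OLMALINC: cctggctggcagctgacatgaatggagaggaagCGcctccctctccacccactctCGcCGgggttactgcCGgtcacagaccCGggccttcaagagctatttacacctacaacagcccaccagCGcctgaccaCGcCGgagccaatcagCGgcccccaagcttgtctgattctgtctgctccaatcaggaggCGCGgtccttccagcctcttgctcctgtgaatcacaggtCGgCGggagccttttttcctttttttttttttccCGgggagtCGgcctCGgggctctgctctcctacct

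The second set comprises CRNDE (chr16:54928837-54929136, minus strand) and MIRLET7BHG (chr22:46085747-46086046, plus strand), which had transcripts lower in AS.
CRNDE: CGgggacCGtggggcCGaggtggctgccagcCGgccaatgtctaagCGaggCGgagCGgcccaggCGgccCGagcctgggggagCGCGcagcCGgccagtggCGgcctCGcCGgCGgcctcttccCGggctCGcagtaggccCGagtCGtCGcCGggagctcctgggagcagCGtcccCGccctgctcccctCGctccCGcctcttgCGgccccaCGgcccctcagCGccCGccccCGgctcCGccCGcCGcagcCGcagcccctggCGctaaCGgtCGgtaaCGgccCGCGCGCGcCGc
MIRLET7BHG: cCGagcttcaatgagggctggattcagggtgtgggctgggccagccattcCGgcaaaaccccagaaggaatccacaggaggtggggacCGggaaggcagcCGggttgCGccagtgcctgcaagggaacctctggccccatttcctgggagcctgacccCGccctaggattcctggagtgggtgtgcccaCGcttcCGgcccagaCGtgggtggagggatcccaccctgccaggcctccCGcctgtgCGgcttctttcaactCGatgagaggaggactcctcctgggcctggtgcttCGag

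The 300 bases of CRNDE held 44 CG dinucleotides and those of MIRLET7BHG held 13, so the genes with lower transcripts stood at both ends of this range. THUMPD3-AS1 had 38, APTR 30, NIPBL-DT 28 and OLMALINC 16. Across the 27305 promoters of the RefSeq table the median was 14. Not every member transcript starts at the printed site: within 100 bases of it lay 11 of 11 member transcripts of APTR, 29 of 32 of OLMALINC, 2 of 3 of NIPBL-DT, 8 of 32 of THUMPD3-AS1, 7 of 14 of CRNDE and 2 of 4 of MIRLET7BHG.

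The deposited values, headed TPM, summed to 1039719 in the untreated and 1216810 in the AS library, which TPM cannot do. They behaved as RPKM, that is reads per kilobase of transcript scaled to the reads of the library, with library totals of 13291958.5 and 11281587.0. On this scale transcripts in general stood higher in AS: the median AS to untreated ratio of protein-coding transcripts above 1 in both libraries was 1.19, or 0.25 on the log2 scale, and changes below should be read against that shift. Treatment was visible in 7 of 9 genes of an arsenite response list, among them the immediate early gene EGR1, at 0.408 RPKM in untreated and 134 in AS cells. The heat shock genes HSPA1A and HSPA1B of that list were not called, each with 0 reads in untreated and 1 in AS cells. Each marker gene was taken by its transcript with the highest value. Of 10 sympathoadrenal marker genes, 9 were above 1 RPKM, among them HAND2 (149 and 147), whereas TH had 1 read in each library. Of 10 markers of other cell types, 2 were above 1 in at least 1 library. They were COL1A1 (1.64 and 1.00 RPKM) and the macrophage marker CD68 (0.517 and 3.66). ALB and APOA1 were at 0. The single transcripts of these 10 genes summed to 3.23 in untreated and 6.29 in AS cells. Summed over all transcripts, COL1A1 had 5.58 and 5.42 RPKM and CD68 had 2.45 and 8.33. By such sums COL1A2, GFAP and MBP also exceeded 1 in at least 1 library. The part of these markers in the results was not tested.

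A transcript was called higher when its AS to untreated ratio exceeded 2, and lower when the ratio was under 0.5. Of the 5236 lncRNA transcripts, 708 (13.5%) were called higher, against 6.84% of all 100705 transcripts above 1. Lower calls numbered 312 (5.96%), against 2.01% of all transcripts. The other 4216 lncRNA transcripts passed neither threshold. A member above 1 in a single library differed by the choice itself, and of the 3666 above 1 in both, 209 (5.70%) were higher and 48 (1.31%) lower, against 3.06% and 0.452% of all transcripts above 1 in both. The median of log2((AS + 1)/(untreated + 1)) was 0.18 for lncRNA transcripts and 0.22 for protein-coding ones. The balance between the directions depended on the scale, and with the AS library rescaled to a median protein-coding ratio of 1 there were 366 higher and 487 lower calls. In bulk RNA, fewer cells with an RNA and less RNA per cell cannot be told apart.

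Whole reads behind a value could be recovered for the 4654 members whose transcript version matched GENCODE 44. For these, each ratio carries a 95% exact interval of counting error, which treats reads as independent molecules although they came through PCR without molecular identifiers. Calls whose interval lay on 1 side of 1 numbered 443 higher (9.52%) and 173 lower (3.72%), against 4.58% and 0.988% of all transcripts.

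**Figure D1:**
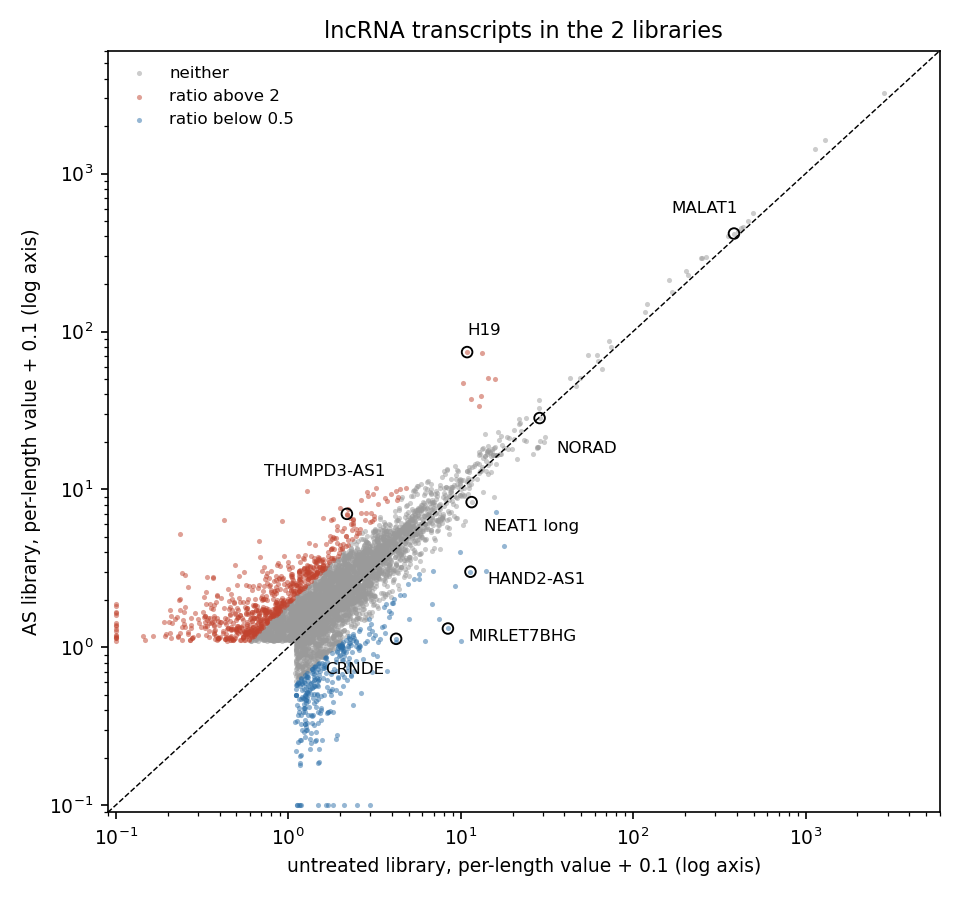
RPKM + 0.1 of 5236 lncRNA transcripts in the untreated library (x axis) and the AS library (y axis), both on log scales, with 708 transcripts above a ratio of 2 in red, 312 below 0.5 in blue and the dashed line marking equal values. Circles mark named transcripts, and the red points around H19 are its isoforms, which stand apart from other lncRNAs of that level.

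Most lncRNA transcripts were scarce, with median values of 1.60 RPKM in untreated and 1.89 in AS cells. Among the 2536 with 1 to 2 RPKM in the higher library, 16.0% were called higher and 8.75% lower, close to the 15.1% of protein-coding transcripts of that level called higher and above the 5.38% called lower. Among the 462 with 5 to 10 RPKM, 10.2% were higher and 2.38% lower, compared with 3.03% and 0.307% of protein-coding transcripts. Of the 38 above 50 RPKM, 3 were higher and none lower, and all 3 belonged to H19. Between 1 and 10 RPKM, lncRNA transcripts were thus called more often than protein-coding ones of equal level in both directions. These shares count transcripts, and isoforms of 1 gene share reads, so they are not independent cases. The 2536 transcripts at 1 to 2 RPKM came from 1274 genes, and the 462 at 5 to 10 RPKM from 216. Of the 11 higher calls of at least 10 RPKM, 8 were H19 isoforms, 5 of them at 10 to 50 RPKM. With intervals required, which the H19 isoforms called higher lack, 1.35% of lncRNA and 1.18% of protein-coding transcripts were higher at 10 to 50 RPKM, and 0% and 0.339% above 50.

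**Figure D2:**
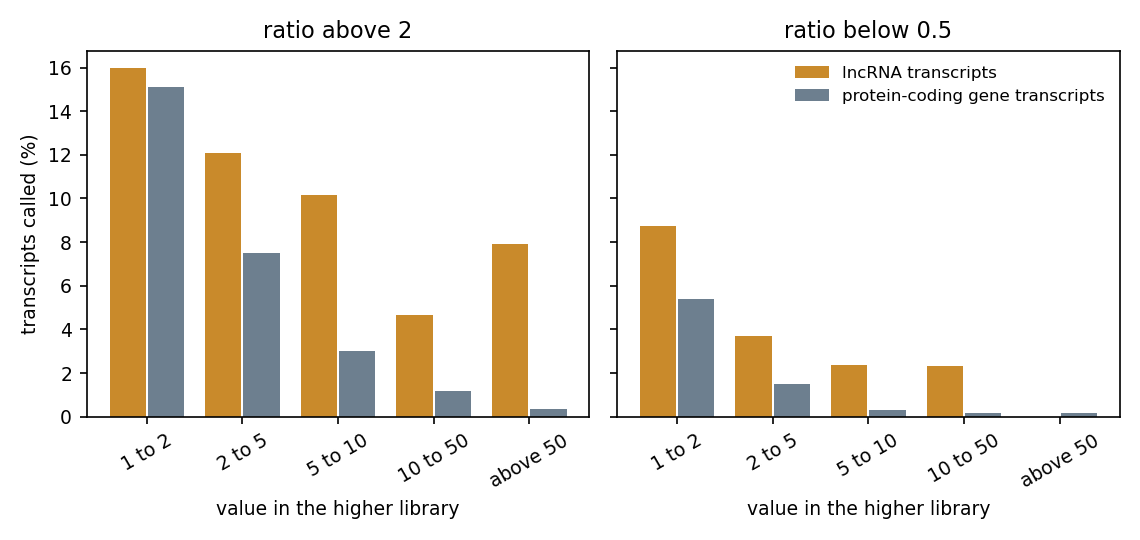
Share of lncRNA and of protein-coding gene transcripts with an AS to untreated ratio above 2 (left) and below 0.5 (right), by RPKM in the higher library. Among lncRNA transcripts the share of higher calls ran from 16.0% at 1 to 2 RPKM to 4.65% at 10 to 50 RPKM, and the bar above 50 RPKM stands for 3 of 38 transcripts.

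Counting was by exon overlap. In 50273 isoform pairs where the exons of 1 lay inside those of the other, the inner isoform never had more reads. A read therefore counts for every isoform, and for every overlapping gene, that covers it. Of the members, 3209 (61.3%) shared at least 1 exonic base with another gene, and 568 (10.8%) lay with over 80% of their bases in exons of 1 other gene, 442 of them on the opposite strand. Whether strand was used in counting is not given in the sources used here.

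All 38 members above 50 RPKM shared exonic bases. The largest, ENSG00000259001, had 24117 reads in untreated and 23390 in AS cells, while RPPH1, the RNase P RNA it overlaps, had 23193 and 22461. ENSG00000282885 had 22324 and 24074 reads, while RN7SL2, the signal recognition particle RNA inside it, had 22322 and 24065. ENSG00000270066 matched the Cajal body RNA SCARNA2 read for read, at 412 and 417. Reads of such members cannot be told apart from those of the small RNA. The same held for TUBA1B-AS1, which lies within TUBA1B exons on the opposite strand and had 252 RPKM in untreated and 292 in AS cells. A transcript of TUBA1B had 245 and 276. Not all opposite-strand pairs were this close: ENSG00000269968, within GAPDH exons, had 74.0 and 79.6 RPKM beside 673 and 821 for GAPDH. Whether counting ignored strand was not tested. Results on members that share no exonic base are therefore given separately: 2027 transcripts of 739 genes, of which 351 (17.3%) were higher and 168 (8.29%) lower.

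MALAT1 (ENSG00000251562, GRCh38 chromosome 11, 65497640 to 65508073, plus strand), the most abundant classical lncRNA here, had 14 member isoforms, and none was called. They spanned 1.18 to 496 RPKM in untreated and 1.11 to 561 in AS cells. The isoform ENST00000534336 had 384 RPKM in untreated and 417 in AS cells, a log2 ratio of 0.12 and thus below the general shift. The short isoform ENST00000610481 differed, with 15.6 and 8.79 RPKM, or 73 and 35 reads (ratio 0.565, interval 0.366 to 0.856). An annotated antisense gene overlaps MALAT1 exons, and the strands cannot be told apart if counting ignored strand.

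NEAT1 (ENSG00000245532, chromosome 11, 65422774 to 65445540, plus strand) makes a short transcript and a long one that share their start, and the long one is required for paraspeckles. The long transcript ENST00000501122 had 11.5 RPKM in untreated and 8.21 in AS cells. Its reads were 3471 and 2106, a ratio of 0.715 (interval 0.677 to 0.755). The short isoform with the most reads, ENST00000601801, had 14.4 and 14.2 RPKM, or 674 and 564 reads (ratio 0.986, interval 0.880 to 1.10). Without the reads of that short isoform, the long transcript had 2797 reads in untreated and 1542 in AS cells, a ratio of 0.650 (interval 0.610 to 0.691) and a log2 ratio of -0.62. The long-specific part was thus lower in AS while the shared part had similar values, although neither passed the fold threshold. Of 9 isoforms, the call rule marked 1 as lower, ENST00000616315, on 17 and 7 reads with an interval of 0.170 to 1.23.

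Several other well known lncRNAs stayed short of the thresholds. NORAD, which binds Pumilio proteins in the cytoplasm, had 28.6 and 28.2 RPKM (2053 and 1719 reads). The telomerase RNA TERC, which another annotated gene overlaps, had 42.7 and 51.0 RPKM. KCNQ1OT1, an imprinted antisense RNA, had 1.63 and 1.99 RPKM over 1981 and 2058 reads (ratio 1.22, interval 1.15 to 1.30). MIAT, a nuclear RNA, had 7.77 and 6.66 RPKM for its most abundant isoform (ratio 0.857, interval 0.779 to 0.941). Over its 24 isoforms the median ratio was 0.818, with a range of 0.544 to 1.43. None of these ratios passed the threshold, and those of NORAD and MIAT lay below the general shift.

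H19 (ENSG00000130600, chromosome 11, 1995166 to 2001706, minus strand), the maternally expressed RNA of the imprinted IGF2 locus, rose most among abundant lncRNAs. Of its 12 isoforms 8 were called higher and none lower. The median over isoforms was 12.9 RPKM in untreated and 38.2 in AS cells, and the ratios ran from 1.09 to 6.85. The isoform ENST00000447298 rose from 10.8 to 74.0 RPKM. The other 4 isoforms were not called, and 2 of them were abundant: ENST00000431095 had 14.9 and 16.2 RPKM, and ENST00000442037 had 14.7 and 17.0. For 11 of the 12 isoforms the version in the deposited table differs from GENCODE 44, so read counts and the exons behind these differences were not analysed here.

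Among the other transcripts above 10 RPKM in 1 library, 3 genes had a ratio above 2. THUMPD3-AS1, which starts near SETD5, rose from 3.11 to 10.2 RPKM by its isoform ENST00000664877 (39 and 108 reads). NRAV, named as a regulator of the antiviral response, rose from 4.34 to 10.0, and THAP9-AS1 from 4.73 to 10.0. These 3 isoforms share part of their bases with neighbouring genes. LINC00641 shares none, and had 13.8 RPKM in untreated and 22.4 in AS cells, or 996 and 1370 reads (ratio 1.62, interval 1.49 to 1.76), short of the threshold. CHASERR, which lies upstream of CHD2 and restrains its expression, had 6.09 and 10.0 RPKM (ratio 1.65, interval 1.32 to 2.07).

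In the opposite direction, 4 transcripts above 10 RPKM in 1 library had a ratio under 0.5, of which 2 belong to HAND2-AS1. GTF2IP1, a pseudogene-derived RNA of the general transcription factor gene GTF2I, fell from 13.9 to 2.95 RPKM (117 and 21 reads), but 90.6% of its bases lie in exons of another gene and its reads are uncertain among near-identical copies. ENSG00000263786 fell from 15.8 to 7.05 RPKM (151 and 57 reads, ratio 0.445, interval 0.322 to 0.607). Further ratios below 1 at this level, after those of the MALAT1, NEAT1, HAND2-AS1 and MIR137HG isoforms described with their genes, were not called: HNRNPK-AS1 had 11.0 and 9.32 RPKM, ATP6V0E2-AS1 had 14.3 and 12.4, ENSG00000267062 had 15.0 and 12.9, and ENSG00000242588 had 10.4 and 8.97. Among the largest ratios short of the threshold, ENSG00000283103 had 5.52 and 10.5 RPKM, ENSG00000253356 had 7.90 and 12.9, and the pseudogene-related RNF216P1 (5.59 and 10.4) and SBDSP1 (6.26 and 11.0) may share reads with their parent genes.

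Transcripts with no shared base and at least 50 reads in 1 library were a set chosen after values were seen. Of 554, 43 were higher, from 19 genes, and 27 lower, from 21 genes. Over all transcripts above 1, without that read minimum, 6.84% were higher and 2.01% lower. Except for THUMPD3-AS1, the rises named here reached 50 reads in AS cells alone, so they entered through the library where they are high. ENSG00000251680 rose from 5 to 58 reads. THUMPD3-AS1 rose from 86 to 241 reads by ENST00000654392 (2.09 to 6.90 RPKM, ratio 3.30, interval 2.57 to 4.27), a form without shared bases. APTR rose from 15 to 51 reads, and OLMALINC, named for oligodendrocyte maturation, from 16 to 50. DLEU2, a microRNA host deleted in leukaemia, rose from 19 to 59 by ENST00000665220, while its most abundant isoform was not called at 3.12 and 4.13 RPKM. NIPBL-DT, divergent to the cohesin loader gene NIPBL, rose from 33 to 80 by ENST00000647750, while its isoform with the most reads, ENST00000649921, was not called at 212 and 291 (ratio 1.62, interval 1.35 to 1.94). MAPKAPK5-AS1 rose from 23 to 52. All 43 stayed below 10 RPKM in both libraries, and isoforms of THUMPD3-AS1, APTR and OLMALINC recur among them.

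MIRLET7BHG (ENSG00000197182, chromosome 22, 46053869 to 46113928, plus strand), a host of let-7 microRNAs, was lower in all 4 of its isoforms. They fell from between 1.83 and 8.34 RPKM to between 0.179 and 1.42. Read counts for 3 of them were 97 and 12, 95 and 20, and 297 and 73, with ratios between 0.146 and 0.290. The intervals of all 3 lay below 0.5. A second microRNA host, MIR137HG, whose product is enriched in neurons, had lower values in 6 of 7 isoforms, with ratios of 0.547 to 0.729, but none passed the threshold.

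CRNDE (ENSG00000245694, chromosome 16, 54916492 to 54929189, minus strand), a lncRNA raised in several tumours and active in neural development, fell in 3 of 14 isoforms. These 3 hold whole introns of other isoforms: ENST00000558952 had 259 and 55 reads (4.12 and 1.03 RPKM, ratio 0.25, interval 0.184 to 0.336), ENST00000657142 had 285 and 88, and ENST00000557792 had 316 and 104. The spliced form ENST00000502066 of 5 exons had 51 and 53 reads, a ratio of 1.22 (interval 0.818 to 1.83). The intron-holding forms of CRNDE thus fell while this spliced form did not.

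HAND2-AS1 (ENSG00000237125, chromosome 4, 173527270 to 173591399, plus strand), which starts head to head with the sympathetic lineage gene HAND2, had 41 isoforms, 2 called higher and 3 lower. ENST00000512099 fell from 17.7 to 4.27 RPKM (503 and 103 reads) and ENST00000646152 from 11.3 to 2.91 (453 and 99 reads, interval 0.205 to 0.321). Of the bases of ENST00000512099, 24.7% lie in exons of HAND2 on the opposite strand. The isoform with the most reads passed no threshold: ENST00000502896 had 2140 and 1190 reads, 30.5 and 20.0 RPKM (ratio 0.655, interval 0.610 to 0.704). The higher calls were spliced isoforms near 1 RPKM. HAND2 itself had similar values in both libraries, as given above.

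LINC00682 fell in 3 of its 4 isoforms, with ratios of 0.465 to 0.481, while the fourth had 15.8 and 16.4 RPKM. GATA2-AS1 fell in 1 of 4 isoforms, from 36 to 13 reads (ratio 0.425, interval 0.207 to 0.822). GATA3-AS1 had 165 and 95 reads (ratio 0.678, interval 0.521 to 0.878), short of the threshold. For these transcripts antisense to GATA2 and GATA3, regulators of the sympathetic lineage, the intervals lay below 1.

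**Figure D3:**
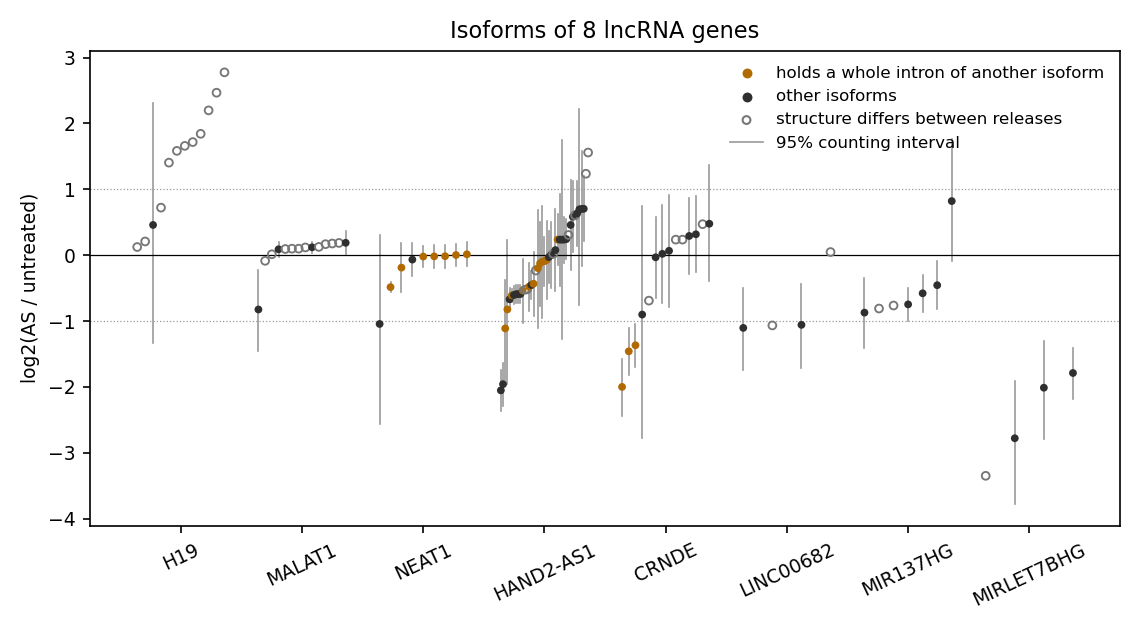
log2 of the AS to untreated RPKM ratio of each isoform (points, sorted within a gene) for 8 lncRNA genes, with 95% counting intervals where reads were recovered and dotted lines at ratios of 2 and 0.5. Open points are isoforms whose version differs from GENCODE 44. H19 isoforms reach a ratio of 6.85, all 4 MIRLET7BHG isoforms lie below 0.5, and the 3 low CRNDE isoforms are those that hold introns.

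The same split was counted over all members. Members that hold a whole intron of another isoform were higher in 10.3% and lower in 2.38% of 842 cases, against 13.5% and 7.27% of the 3812 that hold none. Within 199 genes with both kinds, the median log2((AS + 1)/(untreated + 1)) of the intron-holding forms was below that of the others in 116 and above it in 83. In the 30 of these genes that share no exonic base, it was below in 21 and above in 9, with medians of 0.10 and 0.27. This comparison was added after values were seen. Isoforms of 13 genes were called in both directions, among them HAND2-AS1, PVT1 and TTC28-AS1, and isoforms of 1 gene share reads.

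Calls were also counted over lists of lncRNAs with known roles. Nuclear body RNAs (MALAT1, NEAT1 and MIAT) had 47 transcripts, with 0 higher and 1 lower. Neuroblastoma and sympathetic lineage lncRNAs had 380, with 72 higher and 8 lower. Of the 72, 44 were isoforms of PVT1, the neighbour of MYC, whose 161 isoforms had a median ratio of 1.55, and 10 were isoforms of DLEU1. Of 16 transcripts of imprinted lncRNAs, 8 were higher, all of them H19. Cytoplasmic and RNA-binding-protein sponge lncRNAs had 8 of 26 higher, from OIP5-AS1 (5 isoforms) and DANCR (3 isoforms). The most abundant isoforms of both were not called, at 7.23 and 9.01 RPKM for OIP5-AS1 and 20.4 and 20.7 for DANCR.

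Only 3 genes of a list of 22 stress and damage responsive lncRNAs had members, with 4 of 14 transcripts higher and 1 lower. Several of the 22 names, among them TP53COR1 and HMOX1-DT, matched no transcript by name, so their level was not measured here. NR4A1AS, antisense to an immediate early gene and overlapping it, had both transcripts higher, 1 of them on 5 and 13 reads. GABPB1-AS1 had 2 of 11 higher, and HIF1A-AS3 fell from 1.57 to 0.521 RPKM. In the list of neural development lncRNAs, 2 of 16 genes had members, and the 3 lower calls among 21 transcripts were those of CRNDE. NEUROD1-DT of that list likewise matched no transcript by name. Over all lncRNA transcripts, for comparison, 13.5% were higher and 5.96% lower.

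Position relative to protein-coding genes divided the calls. Among genes without shared exonic bases, taken by the transcript with most reads, 148 of 739 (20.0%) were higher and 115 (15.6%) lower. Divergent lncRNAs start within 1 kb of a protein-coding start on the other strand and, as counted here, overlap no protein-coding gene. They were higher in 47 of 157 genes (29.9%) and lower in 5 (3.18%). Intergenic lncRNAs were higher in 59 of 256 (23.0%) and lower in 19 (7.42%). lncRNAs antisense to a protein-coding gene were higher in 35 of 212 (16.5%) and lower in 59 (27.8%). Those overlapping a gene on the same strand without touching its exons were higher in 7 of 114 (6.14%) and lower in 32 (28.1%). Median log2((AS + 1)/(untreated + 1)) followed the same order, at 0.36, 0.19, -0.09 and -0.28. With intervals required, 22.9% of divergent lncRNAs were higher, and lower calls were 18.1% of antisense and 13.3% of same-strand ones, with 1.77% of the latter higher. With values above 1 in both libraries required as well as unshared bases, few calls were left: 6 of 72 divergent lncRNAs were higher and 0 lower, 6 and 4 of 138 intergenic ones, 5 and 6 of 86 antisense ones, and 1 and 3 of 56 same-strand ones. Their medians were 0.20, 0.05, 0.02 and -0.07, in the same order. Over all members, shared bases included, the shares were closer together: 22.8% higher and 2.51% lower for 517 divergent transcripts, and 10.5% and 8.70% for 609 on the same strand. On the rescaled AS library the latter became 5.58% and 13.5%, and the 1997 antisense transcripts moved from 13.3% higher and 8.21% lower to 5.81% and 12.3%, so that lower calls outnumbered higher ones in both classes.

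**Figure D4:**
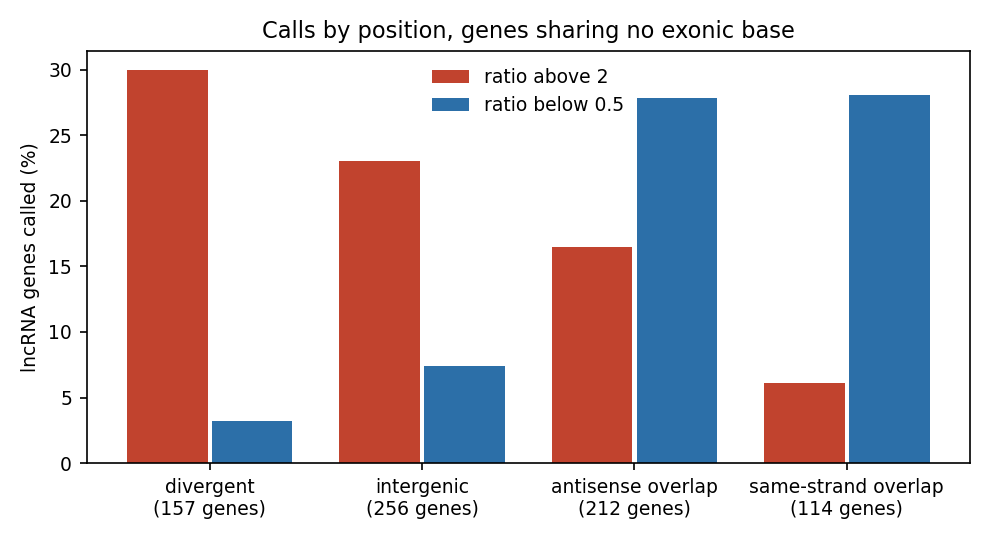
Share of lncRNA genes with an AS to untreated ratio above 2 (red) and below 0.5 (blue), by position relative to protein-coding genes, for 739 genes that share no exonic base, 1 transcript each. Red bars fall from 29.9% for divergent to 6.14% for same-strand genes, and blue bars rise from 3.18% to 28.1%, or to 13.3% with counting intervals required.

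Intronic lncRNAs were set beside the mRNA of the gene that holds them. In 114 pairs, the lncRNA had the lower log2 value in 93, and the medians were -0.28 for lncRNAs and 0.21 for the summed host transcripts. Of the hosts, 2 were called higher and none lower. Of the 32 lncRNAs called lower, 29 were below 1 RPKM in AS cells, so they entered through the untreated library alone. With the 56 lncRNAs above 1 in both libraries, 45 lay below their host, with medians of -0.07 and 0.22, and 3 were called lower and 1 higher. ENSG00000260417, in an intron of the chromatin factor gene GSE1, fell from 105 to 13 reads (2.29 to 0.334 RPKM, ratio 0.146, interval 0.0752 to 0.260), while GSE1 had 220 and 217 RPKM summed over its isoforms. ENSG00000230922, within PHF21B, fell from 54 to 16 reads. Whether such reads came from the lncRNA or from unspliced host RNA cannot be told apart. If counting ignored strand, the same holds for antisense lncRNAs without shared exonic bases where they lie in introns.

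Annotated intronic (-IT) and overlapping (-OT) transcripts are named for such positions. Of 19, 8 were lower and 1, SOD2-OT1, was higher, against 2.01% lower and 6.84% higher of all transcripts above 1. Among the lower ones only ASAP1-IT2 (2.30 and 1.05 RPKM) and SND1-IT1 (2.15 and 1.07) were above 1 in both libraries. The other lower ones were below 1 in AS cells and entered through the untreated library alone. SOD2-OT1 (0.613 and 1.65 RPKM) entered through the AS library alone. ALMS1-IT1 fell from 33 to 10 reads, ASAP1-IT2 from 62 to 24 and ANKRD44-IT1 from 27 to 5, all with intervals below 1. The intervals of WDR7-OT1 (9 and 3 reads) and FAR1-IT1 (5 and 2 reads) spanned 1. The 2 of the 19 with the most reads were not called: GABPB1-IT1 had 210 and 178 reads (ratio 0.999, interval 0.813 to 1.23) and N4BP2L2-IT2 had 126 and 99 (ratio 0.926, interval 0.704 to 1.21). Host ALMS1 had 205 and 235 RPKM summed over isoforms.

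By name, transcripts of divergent (-DT) genes were higher in 17.6% and lower in 3.21% of 374, and those of LINC genes in 7.47% and 3.23% of 589. Antisense (-AS) transcripts were higher in 12.7% and lower in 6.31% of 1378. Transcripts of unnamed genes were higher in 14.3% and lower in 9.54% of 1666. Short transcripts were called more often in both directions: 19.9% higher and 13.0% lower among those of up to 756 bases, against 6.28% and 3.18% among those of 2254 bases or more. At a given RPKM a short transcript rests on fewer reads, and with intervals required the shares were 9.62% and 3.87% against 6.28% and 3.18%.

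Divergent lncRNAs were paired with the neighbouring mRNA. In 149 pairs without shared bases, the lncRNA was higher in 43 and lower in 4, whereas the mRNA, summed over its transcripts, was higher in 5 and lower in 0. Both were higher in 2 pairs. Of the 43, 38 were below 1 RPKM in untreated cells, and all 4 lower ones were below 1 in AS cells, so they entered through 1 library alone, a choice the summed mRNAs did not undergo. The lncRNA had the larger plain ratio in 97 pairs and the larger log2((AS + 1)/(untreated + 1)) in 80, with medians of 0.34 and 0.28. In the 69 pairs with the lncRNA above 1 in both libraries, it had the larger plain ratio in 34 and the larger log2 value in 30, with medians of 0.18 and 0.26, and 5 lncRNAs and 1 mRNA were higher. The larger values of divergent lncRNAs were thus not seen in that subset. Spearman's rho across the 149 pairs was 0.21, as a description, since all pairs share both libraries.

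APTR, by ENST00000654794, rose from 0.451 to 2.88 RPKM beside RSBN1L, which had 27.1 and 39.2. ENSG00000287601 rose from 7 to 45 reads (ratio 7.57, interval 3.39 to 19.9) beside COX20, a cytochrome c oxidase assembly gene with 59.9 and 87.2 RPKM. PAN3-AS1 rose from 11 to 33 reads beside the deadenylase subunit gene PAN3, which had 10.2 and 13.9 RPKM. The neighbours of these rising lncRNAs were all between the thresholds. Like APTR, ENSG00000287601 (0.825 RPKM) and PAN3-AS1 (0.613) were below 1 in untreated cells. All of them thus entered through the AS library alone, a choice their neighbours did not undergo. USP38-DT went the other way, falling from 14 to 2 reads while USP38 had 21.0 and 39.3 RPKM. At 0.234 RPKM in AS cells, USP38-DT entered through the untreated library alone. FGD5-AS1, by its isoform with most reads, had 724 and 755 reads (ratio 1.23, interval 1.11 to 1.36) beside NR2C2 with 86.8 and 91.3 RPKM. Other lncRNAs start head to head with a protein-coding gene but overlap one, and were counted as antisense above. The most abundant of these, which share exonic bases, were not called. MVP-DT had 62.7 and 64.8 RPKM, ENSG00000259952 had 22.1 and 23.2, and ENSG00000275719, near the amino acid transporter gene SLC1A5, had 13.3 and 18.1.

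**Figure D5:**
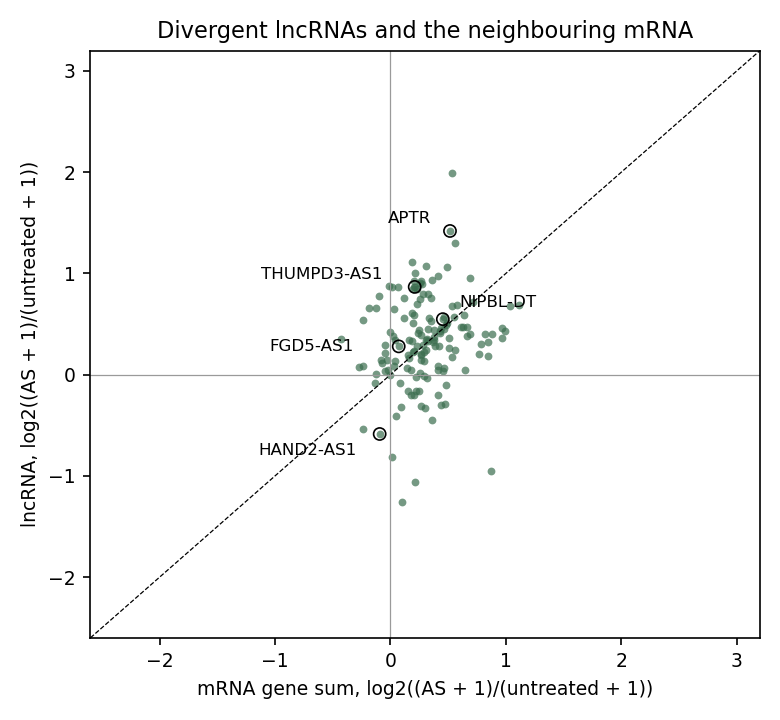
log2((AS + 1)/(untreated + 1)) of 149 divergent lncRNAs (y axis, transcript with most reads) against that of the neighbouring mRNA (x axis, RPKM summed over transcripts), with the dashed line marking equal values and circles marking named pairs. The lncRNA lies above the line in 80 of 149 pairs, and in 30 of the 69 whose lncRNA was above 1 RPKM in both libraries. APTR rises well above its neighbour, and HAND2-AS1 lies below zero.

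Promoters of 505 of the 1971 lncRNA genes were found in RefSeq, 253 of them of genes without shared bases. For these 253 the median number of CG dinucleotides in 300 bases was 30.5 for 98 divergent, 16 for 89 intergenic, 20 for 59 antisense and 1 for 7 same-strand lncRNAs. It was 26 for 49 genes called higher, 24 for 181 not called and 8 for 23 called lower. The TATA motif TATAAA, on either strand, was in 3.06% of divergent promoters, 21.7% of those of genes called lower (5 of 23) and 12.0% of all promoters of the table. The GC box GGGCGG was in 75.5% of divergent promoters and 44.6% of all promoters. The AP-1 motif TGACTCA was in 2 of 49 promoters of genes called higher (4.08%) and 2 of 23 of those called lower (8.70%), against 4.92% of all promoters. Position and call overlap in these counts, and a match in a promoter is a description of its letters.

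At the lowest levels, 16 members were listed at 0 in untreated and 12 in AS cells. RAB30-DT by ENST00000665456 had 0 and 18 reads and ENSG00000287868 had 0 and 26. ENSG00000286881 and DNAJC27-AS1 were likewise listed at 0 in untreated cells only. ENSG00000249084 had 16 and 0 reads, ENSG00000273262 had 14 and 0, and ENSG00000284803 had 12 and 0. ENSG00000265840 (0 and 5 reads), ENSG00000274630 (5 and 0) and ENSG00000270103 (3 and 0) lie wholly in exons of other genes. RAB30-DT also rose by ENST00000669005, which shares no base, from 37 to 77 reads. Among unshared transcripts with at least 50 reads, other large falls were those of ENSG00000230737 (68 to 11 reads), ENSG00000272167 (70 to 17), PRKCA-AS1 (100 to 27) and SLCO4A1-AS2 (59 to 18), all antisense to a protein-coding gene. They reached 50 reads in untreated cells alone. If counting ignored strand, their reads cannot be told apart from unspliced RNA of the gene each overlaps.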

How the data were processed

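Total RNA of untreated and AS-treated SH-SY5Y cells was depleted of rRNA and sequenced with paired ends on a DNBSEQ instrument, 1 library each. According to the study's methods, reads were trimmed with fastp, aligned to GRCh38 with HISAT2 2.1.0 and assigned to transcripts with StringTie and GENCODE. The authors deposited 1 value per transcript under a TPM header, and these values were treated as RPKM, because value times length gave whole reads (within 0.02) for 100% of values. The design had assumed that reads were divided among isoforms, which the values do not show.

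Identifiers were matched to GENCODE 44, which differs from the authors' release. Of the table, 91.1% matched, and 88.9% of the members had the same version. Positions, shared exons and names follow GENCODE 44. Exons, introns, lengths and reads were used only for transcripts of the same version. With 1 library per group no test was run. Calls used ratios above 2 or below 0.5 and a minimum of 1. Intervals are conditional binomial (Clopper-Pearson), with library totals as exposure, and cover counting error only. bedtools 2.31.1 found shared exonic bases, and Python 3.11.15, pandas 2.3.3 and scipy 1.17.1 did the rest. The call rule was also run on simulated data, but only as a check of the code, and no outcome is given here. That run gives no error rate for the calls above, since most members rest on few reads.

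Members and gene lists were chosen with earlier results of these data known. Transcripts were named if they belonged to MALAT1, NEAT1 or a listed gene above 10, were among the 10 most extreme ratios above 10, the 5 largest of those at 0 in the other library, the 5 largest values, or the 5 largest divergent lncRNAs. For this last choice, lncRNAs that overlap a protein-coding gene were included. Those with at least 50 unshared reads, and the isoforms, hosts and pairs described beyond this, were added after seeing the data. Alternatives covered pseudocounts, folds, minimums, scaling, gene sums, membership, counting intervals and, chosen after seeing the data, 1 transcript per gene, no shared base and values above 1 in both libraries. The eCLIP and the knockdown tables each hold 4 of the 1971 lncRNA genes and were not used.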

Additional observations from a re-analysis of the deposited data

How the results depend on the processing

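The 708 higher and 312 lower calls became 156 and 57 with a pseudocount of 1, 154 and 82 at folds of 4 and 0.25, 58 and 15 with a minimum of 5, 209 and 48 with a minimum of 1 in both libraries, 6066 and 3812 without a minimum, and 443 and 173 with intervals that exclude 1. Rescaling to the protein-coding median gave 366 and 487, and to the same sum 414 and 435. Higher calls were 426 of 2484 gene sums (17.1%) and 461 of 3307 transcripts without bases shared with protein-coding genes (13.9%), against 13.5% of 5236, so these counts fell with the number of features. The alternatives chosen after seeing the data gave 294 and 190 of 1971 with 1 transcript per gene and 351 and 168 of 2027 without shared bases. The median log2 ratio of 0.18 became -0.0084 on the protein-coding scale, a reversal, and 0.0086 at the same sum. A pseudocount of 0.1, another lncRNA definition and keeping the small nucleolar RNA hosts kept both counts within 1.5 times.

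By position, rescaling gave 13.7% higher and 4.06% lower for divergent, 5.58% and 13.5% for same-strand, 5.81% and 12.3% for antisense and 6.86% and 6.53% for intergenic transcripts. With intervals that exclude 1, lower calls were 1.52% for divergent, 3.69% for same-strand and 5.17% for antisense transcripts, and higher calls 6.88% for same-strand and 8.65% for antisense ones. Without shared bases, same-strand transcripts were 4.83% higher and 24.8% lower and antisense ones 18.1% lower. With 1 transcript per gene as well, these were 6.14%, 28.1% and 27.8%, and intergenic ones 23.0% higher and 7.42% lower. With intervals on that set, same-strand ones were 1.77% higher and 13.3% lower, antisense ones 18.1% lower and intergenic ones 6.01% lower. With values above 1 in both libraries, higher calls were 8.33% for divergent, 1.79% for same-strand, 5.81% for antisense and 4.35% for intergenic ones, and lower calls 0% for divergent and 5.36% for same-strand ones. Divergent lncRNAs had more higher than lower calls under each of these settings, but the share of pairs with the lncRNA ratio above that of the mRNA went from 65.1% of 149 to 49.3% of 69.

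Of the named transcripts, 33 of 73 moved on rescaling and 15 of 73 as gene sums. No paired analysis was possible because each group has 1 library. Most members rest on few reads, so single folds near 1 RPKM carry wide intervals, and no replicate separates treatment from differences between cultures or libraries.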
